A study of Danio rerio with 6 samples.

Results

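The genes described here are 8 genes of cartilage other than collagens: the aggrecan genes acana and acanb, the link protein gene hapln1a, the matrilin genes matn1 and matn4, the epiphycan gene epyc, the chondromodulin gene cnmd and the regulator gene sox9a. They were taken by symbol from 36191 distinct gene IDs, with table rows of the same ID summed, and all 8 were found. The gene cnmd (gene ID 791772) stands in the tables under its older symbol lect1 and was matched through RefSeq. All 8 passed the filter on low values (FPKM averaging 1 or more across the libraries), and 19313 genes were tested. The gene acanb passed it through the replicate 3 libraries, as its FPKM was 0.34 to 0.85 in the other 4.

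RNA sequencing libraries came from tissue labelled liver of wild-type AB zebrafish, a common laboratory strain, aged 3 months. Controls (CK, 3 libraries) had no treatment, and 3 libraries (GO) came from fish given graphene oxide nanoparticles, sheet-like carbon particles. No dose, exposure time, sex or number of animals per library was used, and the labels do not say whether a library is 1 fish or a pool, so the spread behind each p-value is that of these libraries and may be technical. Total expected counts were 9739760 to 12998273 per library.

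Cartilage is made by chondrocytes, which surround themselves with a fibre network of type II, IX and XI collagen filled with a hydrated gel. The gel is built from aggrecan, a core protein loaded with chondroitin sulfate chains, held on hyaluronan by link protein, while matrilins connect proteoglycans with collagen fibres. In zebrafish, sox9a is needed for the head cartilages to form, and in mammals SOX9 switches on the genes of type II collagen and aggrecan. Cartilage is no part of liver tissue.

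The 8 genes were found in every library, although the labels name liver. A list of 11 chondrocyte markers, 8 of them the genes described here, summed to 1675 to 4492 CPM (counts scaled to a common library total), and each marker had more than 3 counts in every library. The 15 hepatocyte markers summed to 549 to 1215 CPM in replicates 1 and 2 of both groups and to 12441 and 13990 CPM in replicate 3. The 14 exocrine pancreas markers were at 5.86 to 8.62 CPM in replicates 1 and 2 and at 2985 and 3125 CPM in replicate 3. The 16 skeletal muscle markers were at 84211 to 93353 CPM in replicates 1 and 2 and at 64458 and 65487 CPM in replicate 3. No listed marker of these 4 types was at 0 in all libraries. Replicate 3 thus stood apart from replicates 1 and 2 in both groups, and results are given over all libraries, without replicate 3 and for replicate 3 against the others.

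Summed over the 8 genes, the level was 654 and 593 CPM in the controls of replicates 1 and 2 and 1032 and 1016 CPM with graphene oxide. It was 1622 and 1520 CPM in control and graphene oxide replicate 3. Gene levels here and below are CPM scaled by TMM, a method that corrects library sizes for differences in make-up. The marker sums, above and below, are CPM without this scaling. In 6 of the 8 genes every control library of replicates 1 and 2 lay below both graphene oxide libraries of those numbers, which in turn lay below both replicate 3 libraries. Of all tested genes 13.0% had this order. The exceptions were hapln1a and sox9a. The 6 include acanb, which had to lie below replicate 3 because it passed the filter through those libraries. More chondrocytes and more RNA per chondrocyte cannot be told apart in such tissue libraries.

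**Figure D1:**
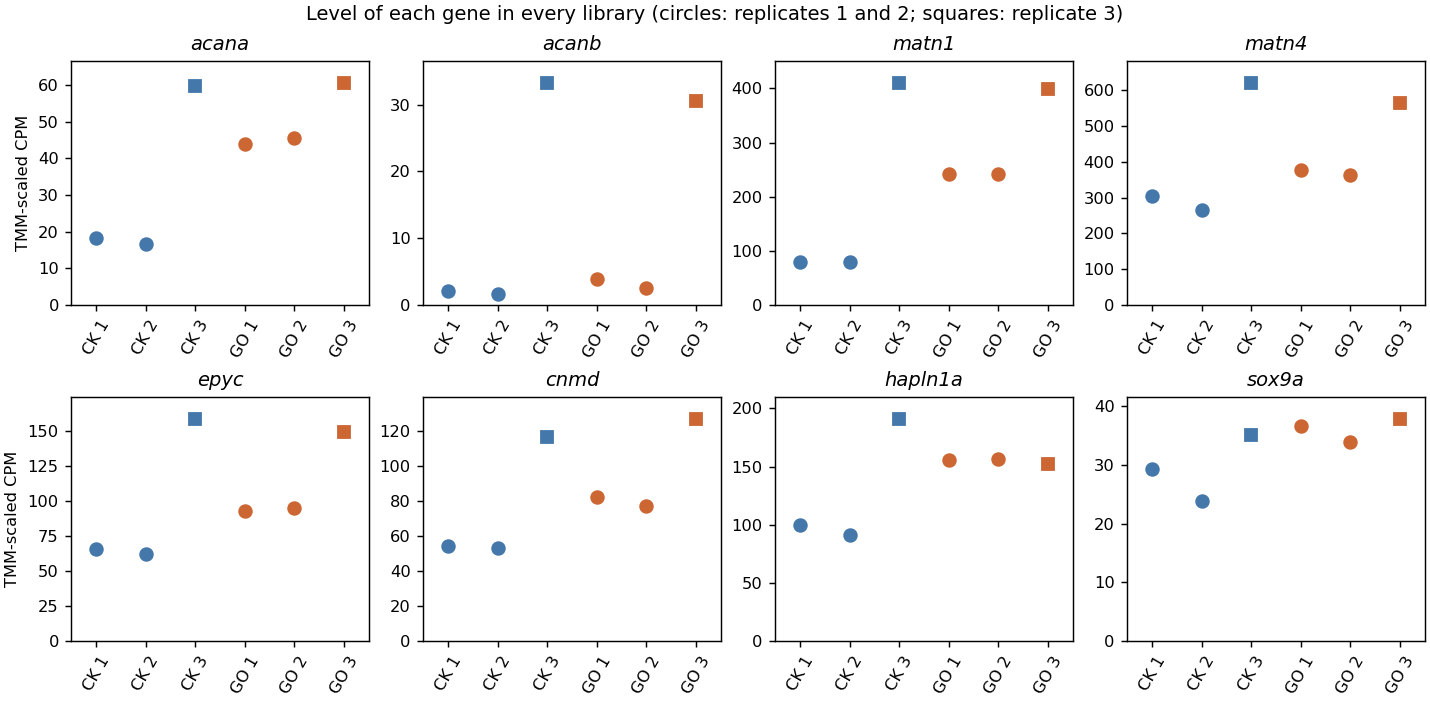
Level of each of the 8 genes in every library in TMM-scaled CPM (y axis, linear, from 0), by library (x axis), with control in blue, graphene oxide in orange, replicates 1 and 2 as circles and replicate 3 as squares. For matn1 the control circles are at 80.2 and 79.3, the graphene oxide circles at 241 and 243, and the squares at 409 and 399 CPM.

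The aggrecan gene acana (497505) encodes the large chondroitin sulfate proteoglycan of cartilage. It was at 18.4, 16.6 and 59.8 CPM in the replicate 1, 2 and 3 controls and at 43.98, 45.6 and 60.5 CPM in graphene oxide replicates 1, 2 and 3. The graphene oxide libraries of replicates 1 and 2 lay 2.56-fold above their controls, whereas the replicate 3 libraries were level with each other, at a ratio of 1.01. In edgeR's quasi-likelihood test acana rose with graphene oxide in replicates 1 and 2, with a log2 fold change of 1.37 ± 0.10 (SE, adjusted p = 2.16e-29), and was higher in replicate 3 than in the others by 1.1 ± 0.24 on the log2 scale (adjusted p = 0.00491).

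The second aggrecan gene, acanb (559593), was the least abundant of the 8 and varied most between libraries. It was at 2.11, 1.66 and 33.2 CPM in the replicate 1, 2 and 3 controls and at 3.96, 2.59 and 30.6 CPM in the graphene oxide libraries. These levels rest on 20, 21 and 392 counts in control and 43, 33 and 335 counts with graphene oxide, where 0 counts would allow up to 0.231 to 0.308 CPM. Replicate 3 exceeded the other control libraries 17.6-fold and the other graphene oxide libraries 9.34-fold, a log2 fold change over both groups of 3.65 ± 0.22 (SE). As acanb passed the filter through replicate 3, this is given as a description without a test. Between the groups in replicates 1 and 2 the log2 fold change was 0.79 ± 0.29 (SE, adjusted p = 0.0298). That call ended in a fit of these 4 libraries alone (adjusted p = 0.0667), in the same fit with the replicate number as a block (0.0784), without control replicate 2 (0.267) and without graphene oxide replicate 1 (0.397, log2 fold change 0.48). Alone among the 8 genes, the ID stands on more than 1 row. With only the highest row per gene ID, edgeR called 7 of the 8 genes higher with graphene oxide in replicates 1 and 2 (largest adjusted p = 0.366). How its reads were assigned was not examined, and its level is uncertain.

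The link protein gene hapln1a (493635), whose product ties aggrecan to hyaluronan, followed the aggrecan genes only in part. It was at 100.2, 91.6 and 190.7 CPM in the replicate 1, 2 and 3 controls and at 155.8, 156.7 and 152.4 CPM with graphene oxide. The 3 graphene oxide libraries were alike and lay between the controls of replicates 1 and 2 and control replicate 3. It rose with graphene oxide in replicates 1 and 2 by 0.71 ± 0.05 on the log2 scale (SE, adjusted p = 4.29e-31). In the replicate 3 pair graphene oxide was at 0.799 of control, a log2 difference of -0.32 with 1 library a side and no test.

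Replicate 3 was higher than replicates 1 and 2 in hapln1a by 0.50 ± 0.19 (SE) on the log2 scale, just inside the threshold (adjusted p = 0.0494, edgeR). The call ended without control replicate 1, control replicate 2, graphene oxide replicate 1 or graphene oxide replicate 2, at adjusted p = 0.15, 0.153, 0.061 and 0.053. Without control replicate 3 the log2 fold change was -0.04, so the difference rested on that library.

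Matrilins are adaptor proteins found in the matrix of cartilage, though not only there. The matrilin gene matn1 (403023) was at 80.2, 79.3 and 409 CPM in the replicate 1, 2 and 3 controls and at 241, 243 and 399 CPM with graphene oxide. Among the 8 genes it had the largest log2 fold change between the groups in replicates 1 and 2, at 1.60 ± 0.04 (SE, adjusted p = 1.52e-83), a 3.03-fold difference of the means. Its replicate 3 libraries differed by a ratio of 0.974. Replicate 3 lay above the others by 1.60 ± 0.29 on the log2 scale (SE, adjusted p = 0.00168, edgeR). That value was 0.72 without control replicate 3 and 2.36 without graphene oxide replicate 3.

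The related gene matn4 (497348) had the highest CPM of the 8 genes. It was at 304, 265 and 619 CPM in the control libraries and at 376, 362 and 564 CPM in the graphene oxide libraries. The groups of replicates 1 and 2 did not overlap, but their ratio of 1.30 was the smallest of the 8. The log2 fold change was 0.38 ± 0.03 between the groups in replicates 1 and 2 (SE, adjusted p = 3.62e-22) and 0.87 ± 0.11 for replicate 3 against the others (adjusted p = 0.00023, edgeR).

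Epiphycan is a small leucine-rich proteoglycan of epiphyseal cartilage in mammals. Its gene epyc (550602) was at 65.9, 62.4 and 158 CPM in the replicate 1, 2 and 3 controls and at 92.7, 95.4 and 150 CPM with graphene oxide. It rose with graphene oxide in replicates 1 and 2 by 0.56 ± 0.06 on the log2 scale (SE, adjusted p = 2.54e-16) and was higher in replicate 3 by 1.00 ± 0.12 (adjusted p = 0.000223).

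Chondromodulin is a membrane glycoprotein that keeps blood vessels out of cartilage in mammals. Its gene cnmd was at 54.2, 53.0 and 117 CPM in the controls and at 82.1, 77.1 and 127 CPM with graphene oxide. In both epyc and cnmd, as in matn1, the controls of replicates 1 and 2 were lowest, the graphene oxide libraries of those numbers came next and both replicate 3 libraries were highest, with smaller steps than in matn1. For cnmd the log2 fold change was 0.57 ± 0.06 between the groups in replicates 1 and 2 (SE, adjusted p = 1.56e-14) and 0.90 ± 0.10 for replicate 3 against the others (adjusted p = 0.00011, edgeR).

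The transcription factor gene sox9a (60641), which is also active outside cartilage, varied least, by 1.58-fold between its lowest and highest library. It was at 29.3, 24.0 and 35.2 CPM in the replicate 1, 2 and 3 controls and at 36.7, 33.9 and 37.8 CPM with graphene oxide. The control libraries of replicates 1 and 2 were the lowest, and control replicate 3 lay among the graphene oxide libraries. Between the groups in replicates 1 and 2 the log2 fold change was 0.42 ± 0.10 (SE, adjusted p = 0.000237, edgeR). Without control replicate 2 it was 0.26 and no longer past the threshold (adjusted p = 0.102). Replicate 3 against the others gave 0.25 ± 0.11 and did not pass (adjusted p = 0.0854), although it passed without graphene oxide replicate 3 (0.00109).

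Levels of different genes can be compared only per length, for which the deposited TPM values (a transcript abundance scaled for length and library total) were used. Over the 6 libraries matn1 was at 158 ± 95.2 TPM and matn4 at 151 ± 49.7 TPM (SD, n = 6), and these neighbours did not differ beyond their spread, since matn1 was the higher in 4 libraries. Below them stood cnmd at 79.2 ± 31.0, epyc at 60.2 ± 18.5, hapln1a at 34.2 ± 10.5, sox9a at 24.5 ± 5.15, acana at 7.80 ± 3.95 and acanb at 2.99 ± 3.67 TPM. From matn4 down, each gene was above the next in all 6 libraries. The SDs are wide because they span the groups and replicate 3.

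The make-up of the 8 genes differed between libraries. In TPM, matn1 held 17.0% and 18.4% of the 8-gene sum in control replicates 1 and 2, 31.0% and 31.5% in graphene oxide replicates 1 and 2, and 34.5% and 35.0% in replicate 3. The share of matn4 was 36.7% and 34.9% in control replicates 1 and 2 and 26.8% to 28.6% in the other 4 libraries. So matn4 exceeded matn1 in those 2 control libraries, and matn1 exceeded matn4 in the others.

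Among the proteoglycan genes, the per-length ratio of acanb to acana was 0.143 and 0.129 in control replicates 1 and 2, 0.117 and 0.0750 with graphene oxide, and 0.693 and 0.635 in replicate 3. This ratio separated replicate 3 from the other 4 libraries and did not rise with graphene oxide in replicates 1 and 2. As acanb passed the filter through replicate 3, the separation is not independent of that filter. The low ratios rest on 20 to 43 counts of acanb. The ratio of hapln1a to acana was 7.07 and 7.19 in control replicates 1 and 2, 4.61 and 4.49 with graphene oxide, and 3.98 and 3.16 in control and graphene oxide replicate 3. These ratios are descriptions with no test.

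**Figure D2:**
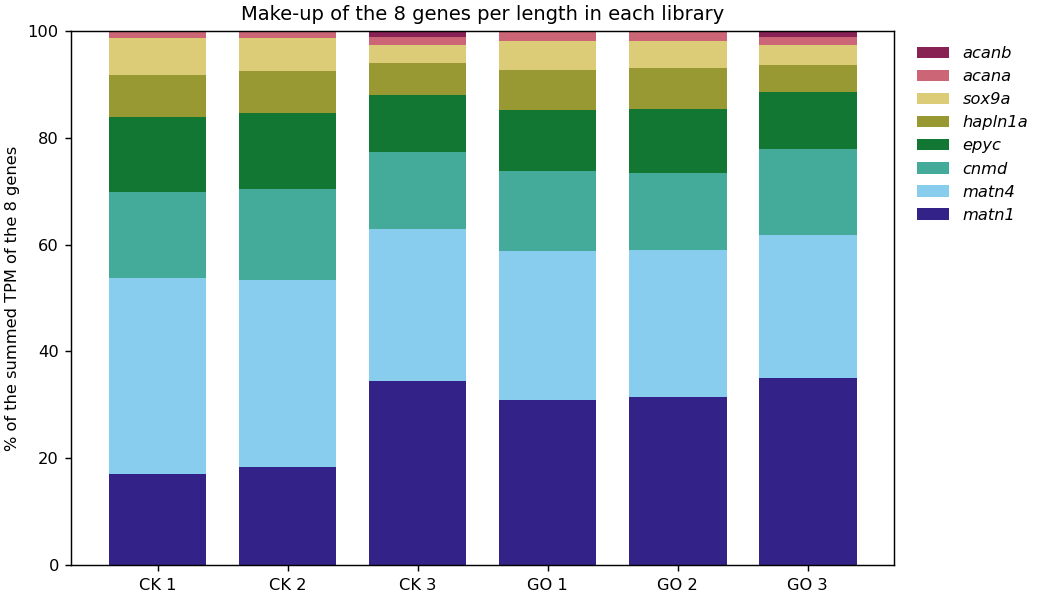
Share of each gene in the summed TPM of the 8 genes (y axis, %), by library (x axis), stacked to 100. The share of matn1 is 17.0% and 18.4% in control replicates 1 and 2 and 31.0% to 35.0% in the other libraries.

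Relative to the type II collagen gene col2a1a, the main fibre collagen of cartilage (chosen as the reference after its values were seen), the genes fell into different patterns. The per-length ratio of matn1 to col2a1a was 0.238 in both controls of replicates 1 and 2, 0.391 and 0.392 with graphene oxide, and 0.496 and 0.468 in control and graphene oxide replicate 3. The ratio of acana was 0.0154 and 0.0140, then 0.0205 and 0.0212, then 0.0218 and 0.0211, in the same order of libraries. Both ratios were thus lowest in the controls of replicates 1 and 2, and for acana the other 4 libraries were close together.

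The opposite was seen for sox9a, whose ratio was 0.0985 and 0.0813 in control replicates 1 and 2, 0.0689 and 0.0636 with graphene oxide, and 0.0496 and 0.0512 in replicate 3. The ratio of cnmd stayed within 0.179 to 0.228. The ratios of matn4 and epyc were also highest in the controls of replicates 1 and 2. They were 0.515 and 0.452 there for matn4 and 0.197 and 0.186 for epyc, and 0.341 to 0.411 and 0.143 to 0.153 elsewhere.

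The labelled groups set graphene oxide against control, and over all 6 libraries none of the 8 genes passed this comparison. The group means were 50.04 ± 9.10 against 31.6 ± 24.4 CPM for acana, 294 ± 90.6 against 190 ± 190 CPM for matn1 and 36.1 ± 1.98 against 29.5 ± 5.60 CPM for sox9a (graphene oxide against control, SD, n = 3 each). The graphene oxide and control libraries overlapped for all 8 genes, because control replicate 3 lay within or above the graphene oxide range. Of all tested genes, 7.76% had groups that did not overlap, 3.67% with graphene oxide higher and 4.09% with it lower.

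In edgeR's quasi-likelihood test 0 of the 8 genes were called, as were 0% of all tested genes. The smallest unadjusted p of the 8 was 0.129, and all 8 adjusted p-values were 0.99988. DESeq2 also called 0 of the 8 and 10 of all genes. With the replicate number as a block 0 of the 8 were called at adjusted p = 0.268 to 0.626. In that fit 5 of the 8 had an unadjusted p under 0.05, as did 2793 of 19313 tested genes. The log2 fold changes then ran from 0.21 ± 0.12 for matn4 to 1.05 ± 0.32 for matn1 (SE).

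Among replicates 1 and 2, all 8 genes were higher with graphene oxide than in control. The median log2 fold change was 0.64, against 0.00 over all tested genes. This fit called 24.8% of all tested genes, 13.0% as higher and 11.8% as lower, so a call by itself was common. The number called was 8 of 8 by edgeR, 6 of 8 by DESeq2, where acanb and sox9a did not pass, and 5 of 8 by limma on log2(FPKM + 1), where matn4 did not pass either. Over all 19313 tested genes DESeq2 called 805 higher and 697 lower, and limma 798 and 343. With unscaled library totals edgeR again called all 8, and its calls over all genes shifted from 2504 higher and 2287 lower to 3290 and 1642.

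The spread behind these calls was that between replicates 1 and 2 of each group. It was small: their counts scattered 1.62 times (control) and 1.56 times (graphene oxide) as much as sampling noise by a chi-square measure, and the common dispersion was 0.000716. Other transcripts moved between the same libraries. The sum of 11 fibroblast markers went from 6510 and 6491 CPM in the controls to 8916 and 8863 CPM in the treated libraries, and all 11 were called higher. The hepatocyte markers summed to 569 and 549 against 1215 and 1203 CPM, with 12 of 13 tested lower. The muscle markers summed to 84323 and 84211 against 92953 and 93353 CPM, with 15 of 16 lower. The part of these shifts in the result was not tested.

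In the replicate 3 pair the difference between the groups was near 0 for most of the 8 genes. The log2 difference of graphene oxide and control was 0.02 for acana, -0.12 for acanb, -0.04 for matn1, -0.13 for matn4, -0.08 for epyc, 0.12 for cnmd, -0.32 for hapln1a and 0.10 for sox9a. It was above 0 in 3 of 8 genes, where 49.0% of all tested genes were above 0. In the replicate 1 and replicate 2 pairs it was above 0 in 8 of 8, where 49.4% and 49.3% of all tested genes were. The medians over the 8 genes were 0.62, 0.60 and -0.06 in pairs 1, 2 and 3.

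**Figure D3:**
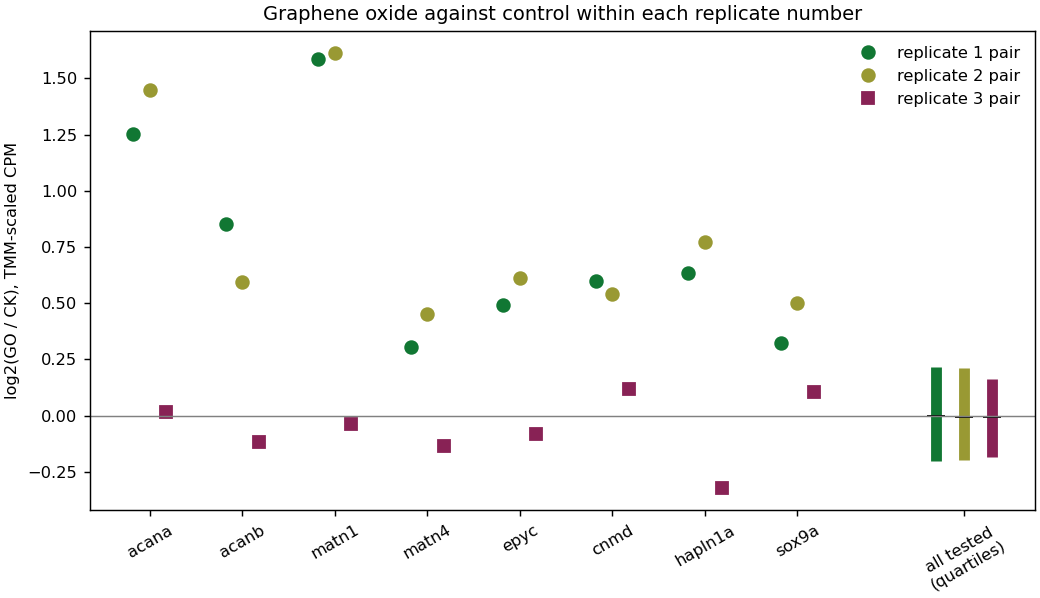
Log2 ratio of graphene oxide to control in TMM-scaled CPM with a prior count of 2 (y axis) within each replicate number for the 8 genes (x axis), with replicates 1 and 2 as circles and replicate 3 as squares. Bars at the right span the lower to upper quartile of all 19313 tested genes, with the median as a dash. All circles lie above 0, and the squares lie between -0.32 and 0.12.

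The graphene oxide effect in replicate 3 minus that in replicates 1 and 2 was also fitted. Each replicate 3 group holds 1 library, which the fit assumes to vary like replicates 1 and 2, so the p-values rest on the small spread between those replicates and do not measure the spread of replicate 3. Under that assumption edgeR called 7 of the 8 genes lower and DESeq2 4 (acana, matn1, epyc and hapln1a). Limma called 1 (matn1) on log2(FPKM + 1) and 0 on log2(FPKM + 0.1). In the latter 6 of the 8 had an unadjusted p under 0.05, as did 3359 of 19313 tested genes. The edgeR fit called 7.59% of all tested genes as lower and 6.63% as higher, 14.2% in all. The difference was -1.64 ± 0.06 for matn1 (SE), -1.35 ± 0.14 for acana and -1.03 ± 0.08 for hapln1a. For epyc it was -0.64 ± 0.09 and for matn4 -0.52 ± 0.05. For cnmd it was -0.45 ± 0.10, and for acanb -0.91 ± 0.33 (adjusted p = 0.0484). The gene sox9a did not pass, at -0.31 ± 0.16 (adjusted p = 0.206).

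The acanb call ended without control replicate 2 and without graphene oxide replicate 1 (difference -0.60). With no filter, or with only the highest row per gene ID, edgeR also called fewer of the 8 genes. With unscaled library totals the calls over all genes moved from 1281 higher and 1465 lower to 966 and 1798.

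Replicate 3 was above replicates 1 and 2 in all 8 genes among controls and in 7 of 8 with graphene oxide, with hapln1a the exception. The median log2 difference was 1.21 among controls and 0.64 with graphene oxide, against -0.00016 and 0.0045 over all tested genes. Both counts and both medians of the 8 include acanb, which passed the filter through replicate 3. The test over both groups called 7 of the 8 genes higher, all but sox9a, where 55.9% of all tested genes were called, 28.8% higher and 27.0% lower. The 7 include acanb, which had to differ because it passed the filter through replicate 3. DESeq2, limma with either pseudocount and the highest row per gene ID each called 6 of the 8, without hapln1a. A fit with no group term called 5, without hapln1a and acana (adjusted p = 0.132 and 0.0662). Over all 19313 tested genes DESeq2 called 4872 higher and 4397 lower, and limma 5720 and 4408 (pseudocount 1) or 5435 and 4247 (0.1). The highest row per gene ID gave 5571 and 5239, and the fit with no group term 5042 and 4645. Among controls the log2 difference was 4.03 for acanb, 2.36 for matn1, 1.77 for acana and 0.40 for sox9a. With graphene oxide it was 3.18, 0.72, 0.43 and 0.10 for the same genes. The difference was larger among controls for each of the 8, which restates the smaller gap between the groups in replicate 3.

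Leaving out control replicate 3 lowered the fitted log2 fold change of acana from 1.1 to 0.43, and leaving out graphene oxide replicate 3 raised it to 1.78. Markers of other tissues also differed in replicate 3. The 15 hepatocyte and 14 pancreas markers were higher in sum, as given above, and all that could be tested were called. Markers that were low outside replicate 3, such as those of pancreas, may have passed the filter through it. The marker calls given here are therefore descriptions. The 9 intestine markers summed to 4100 and 4240 CPM against 162 to 433 CPM, with 9 of 9 higher. The 11 fibroblast markers summed to 9950 and 9394 CPM against 6491 to 8916 CPM, with 7 higher. The 13 notochord markers, some of them shared with epithelia, summed to 2281 and 2245 CPM against 970 to 1079 CPM, with 7 of 11 tested higher and 2 lower. The 10 neural markers summed to 2305 and 2167 CPM against 3753 to 4041 CPM, with 9 lower and 1 higher. Their part in the cartilage values was not tested.

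**Figure D4:**
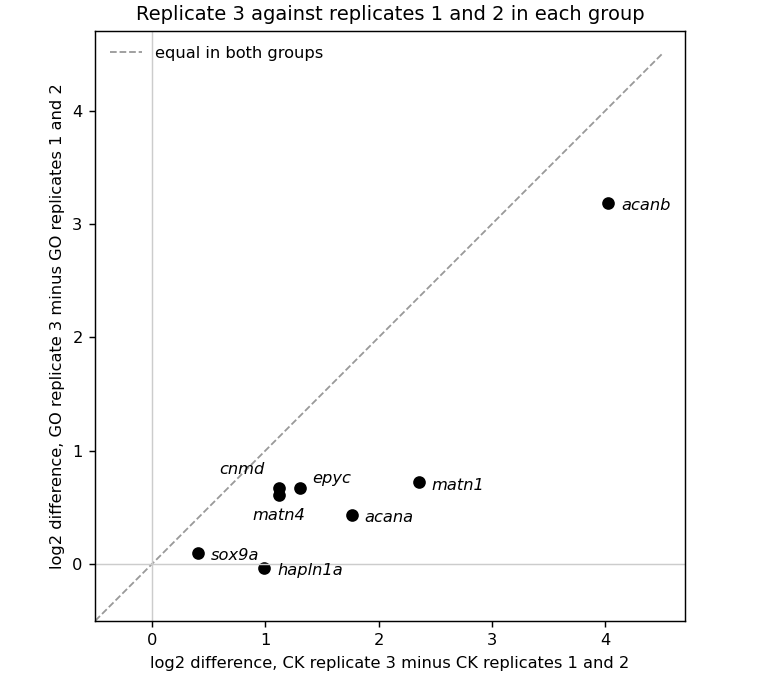
Log2 difference of replicate 3 from the mean of replicates 1 and 2 in TMM-scaled CPM, among controls (x axis) and with graphene oxide (y axis), 1 point per gene. All 8 points lie below the dashed line of equality, with acanb at 4.03 and 3.18 and hapln1a at 0.99 and -0.04.

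Other cartilage genes were read from fixed lists, described by counts and medians. Their calls are those of edgeR. The share of all tested genes called higher was 13.0% for graphene oxide in replicates 1 and 2 and 28.8% for replicate 3. List genes that were low outside replicate 3 may, like acanb, have passed the filter through it. An example is spp1, at 0.553 to 0.943 CPM in replicates 1 and 2 and 6.01 and 5.75 CPM in replicate 3. Which genes did so was not examined, so the replicate 3 counts and medians of the lists are descriptions. In DESeq2 the counts of genes higher with graphene oxide in replicates 1 and 2 were lower for most lists: 1 of 8 aggrecan relatives, 4 of 11 small leucine-rich proteoglycans, 3 of 16 other matrix genes, 1 of 18 transcription factors, 2 of 23 chondroitin sulfate genes, 3 of 16 growth plate genes and 6 of 10 turnover genes. Of all tested genes, DESeq2 called 805 of 19313 higher in that comparison, fewer than edgeR. Of the genes named below for that comparison, hapln1b, barx1, runx3, csgalnact1a and ihha did not pass in DESeq2. In limma on log2(FPKM + 1) neither bone gene named below passed, and the turnover list had 5 of 10 called. That fit called 798 of 19313 tested genes higher.

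Of 12 tested cartilage collagen genes, 11 were higher and 1 lower with graphene oxide in replicates 1 and 2 (median log2 fold change 0.85), and 9 were higher in replicate 3 (median 0.83). The hypertrophic cartilage gene col10a1a rose from 15.0 and 15.7 to 72.6 and 72.6 CPM and was at 410 and 360 CPM in control and graphene oxide replicate 3. The fibre-associated gene col9a1a rose from 28.4 and 30.4 to 94.8 and 94.2 CPM and was at 256 and 224 CPM in replicate 3. The gene col27a1a rose by 1.48 on the log2 scale in replicates 1 and 2. The gene col9a1b was at 268 and 281 CPM in control and 251 and 235 CPM with graphene oxide, a log2 fold change of -0.18 that did not pass without graphene oxide replicate 2.

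Of 8 tested relatives of aggrecan and link protein, 4 were higher with graphene oxide in replicates 1 and 2 (median 0.26), and 4 were higher and 1 lower in replicate 3 (median 0.22). The versican gene vcanb, which encodes a hyaluronan-binding proteoglycan of soft tissue, rose from 39.5 and 40.4 to 67.8 and 74.8 CPM and was at 148 and 162 CPM in replicate 3. The link protein gene hapln1b had log2 fold changes of 0.91 in replicates 1 and 2 and 2.45 in replicate 3. The first of these calls ended without control replicate 1, graphene oxide replicate 1 or graphene oxide replicate 2. The brain proteoglycan gene ncana was lower in replicate 3 by a log2 fold change of -0.58. The count of 4 was 2 without graphene oxide replicate 1 in the first comparison and 2 without control replicate 3 in the second.

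Of 11 tested small leucine-rich proteoglycan genes, which regulate collagen fibres, 7 were higher with graphene oxide in replicates 1 and 2 (median 0.37). In replicate 3, 9 were higher and 1 lower (median 0.74). The asporin gene aspn rose from 10.5 and 9.17 to 19.5 and 17.3 CPM and was at 33.7 and 25.01 CPM in replicate 3. The fibromodulin gene fmodb stood at 3.48 and 2.92 CPM in the replicate 1 and 2 controls, against 43.5 and 32.1 CPM in replicate 3. The keratocan gene kera, known from the cornea, was lower in replicate 3 with a log2 fold change of -0.72, a call that ended in limma with either pseudocount. The count of 7 was 4 without graphene oxide replicate 2.

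Of 16 other tested matrix genes, 5 were higher with graphene oxide in replicates 1 and 2 (median 0.27), while 13 were higher and 1 lower in replicate 3 (median 1.09). The secreted cartilage gene mia rose from 1.48 and 1.26 to 4.05 and 3.46 CPM and was at 12.5 and 10.2 CPM in replicate 3, and the cartilage proteoglycan gene snorc rose by 0.87 on the log2 scale in replicates 1 and 2. The chondrocyte gene ucmab had a log2 fold change of 1.77 in replicate 3. The remaining matrilin genes, singled out after their values were seen, had log2 fold changes of -0.15 (matn3a, adjusted p = 0.124) and 0.04 (matn3b, 0.881) with graphene oxide in replicates 1 and 2, and were higher in replicate 3 by 1.25 and 1.05. Whether they differ from matn1 and matn4 was not tested. The count of 5 was 3 without graphene oxide replicate 2.

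Of 18 tested chondrocyte transcription factor genes, 9 were higher and 1 lower with graphene oxide in replicates 1 and 2 (median 0.30). In replicate 3, 6 were higher and 2 lower (median 0.27). The gene barx1 rose by 0.78 on the log2 scale in replicates 1 and 2, and runx3, a regulator of chondrocyte maturation in mammals, by 0.68. The gene sox5, a partner of SOX9 in mammals that neurons also use, was lower in replicate 3 with a log2 fold change of -0.32. That call ended in limma with either pseudocount. In replicate 3 zbtb16a was lower too, with a log2 fold change of -0.83, and trps1 was higher by 1.69. The call of runx3 ended without control replicate 2. The count of 9 was 5 without control replicate 2, and the count of 6 was 11 without graphene oxide replicate 3.

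Of 23 tested genes that make and sulfate chondroitin chains, 6 were higher with graphene oxide in replicates 1 and 2 (median 0.26). In replicate 3, 10 were higher and 4 lower (median 0.27). In replicates 1 and 2 the sulfate donor synthase genes rose, papss2a with a log2 fold change of 0.62 and papss2b with 0.67, as did the chain-starting enzyme gene csgalnact1a with 0.64. The call of papss2a ended in limma on log2(FPKM + 0.1) and with only the highest row per gene ID. In replicate 3 the sulfate transporter gene slc26a2 was at 22.7 and 19.2 CPM against 1.98 to 3.68 CPM in the others, and the UDP-glucose dehydrogenase gene ugdh at 72.8 and 90.8 CPM against 10.2 to 13.7 CPM. As background, ugdh also serves glucuronidation in liver and gut. With unscaled library totals the count of 6 was 10, and the count of 10 in replicate 3 was 6 without control replicate 3.

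Of 16 tested growth plate signalling genes, 5 were higher and 1 lower with graphene oxide in replicates 1 and 2 (median 0.31), and 12 were higher in replicate 3 (median 0.87). The joint gene gdf5 rose by 1.92 on the log2 scale in replicates 1 and 2, from 1.27 and 0.711 to 3.22 and 4.01 CPM. Its control levels were not far above the level that 0 counts allow. The hedgehog receptor gene ptch1 rose by 0.47. Both calls ended in limma on log2(FPKM + 0.1), and that of ptch1 also with only the highest row per gene ID. The hedgehog ligand gene ihha was at 1.58 and 1.502 CPM in control and 0.368 and 0.786 CPM with graphene oxide, not far above the level that 0 counts allow. Its call as lower ended without control replicate 1, control replicate 2 or graphene oxide replicate 1, and with the replicate block. In replicate 3 ihha was at 10.2 and 9.95 CPM. Intestinal epithelium also makes this ligand.

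Of 8 tested bone genes, 2 were higher with graphene oxide in replicates 1 and 2, namely entpd5a and mmp13a (list median 0.59), and 6 were higher in replicate 3 (median 1.60). The mineralization gene entpd5a was at 1.06 and 0.553 CPM in control, 2.85 and 2.67 CPM with graphene oxide and 13.9 and 12.05 CPM in replicate 3. Of 10 tested turnover genes, proteases and their inhibitors, 8 were higher with graphene oxide in replicates 1 and 2 (median 0.59) and 10 in replicate 3 (median 0.93). The gelatinase gene mmp9, which neutrophils also make, rose from 4.22 and 4.98 to 16.5 and 15.2 CPM, and the inhibitor gene timp2b from 7.18 and 7.98 to 14.1 and 15.9 CPM. In replicate 3 the gelatinase gene mmp2 was higher by 1.19 on the log2 scale.

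**Figure D5:**
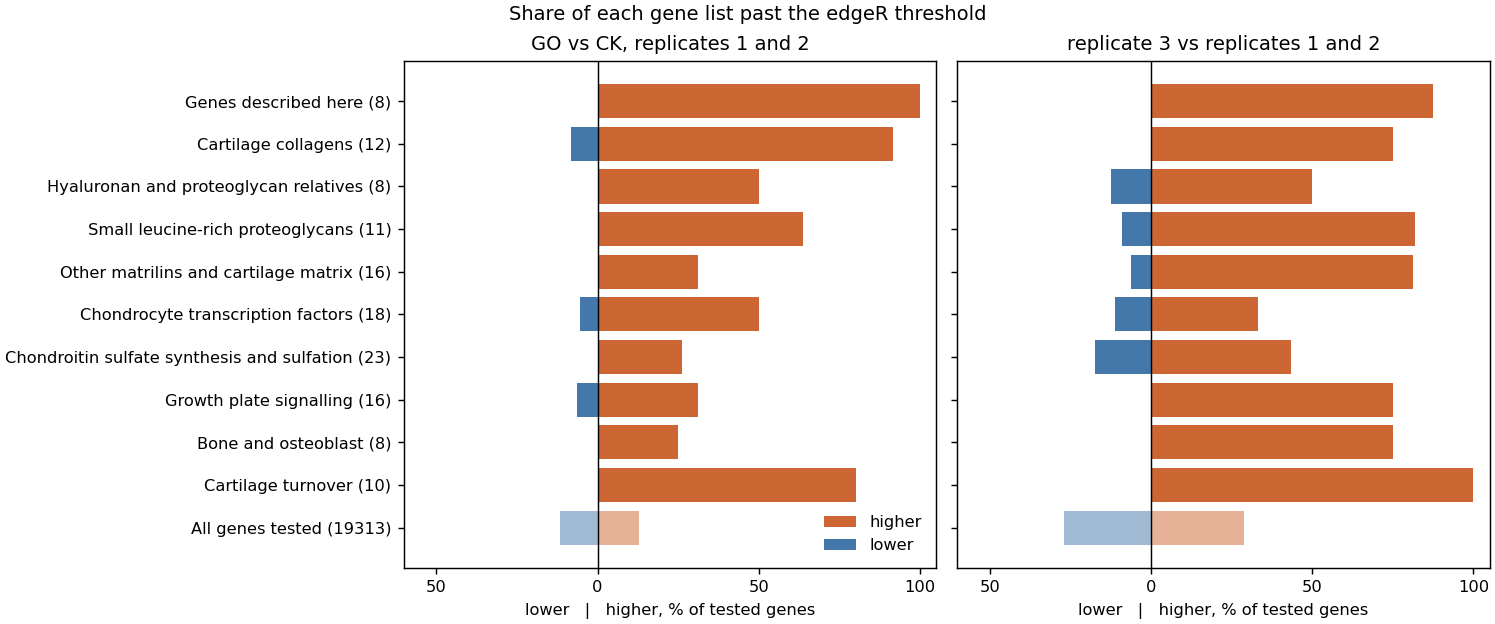
Share of tested genes of each list that passed as higher (orange, right) or lower (blue, left) in edgeR (x axis, %), for graphene oxide against control in replicates 1 and 2 (left panel) and replicate 3 against replicates 1 and 2 (right panel), with the number tested in brackets. The bottom bars show all 19313 tested genes, of which 13.0% and 28.8% were called higher.

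Genes with a profile over the 6 libraries most like the mean of the 8 were sought, leaving out provisional symbols such as those starting with LOC. The search covered 10891 tested genes other than the 8, with a mean of at least 10 CPM. Likeness was the root mean square distance of centred log2 CPM, whose median over these genes was 0.719. The nearest were col12a1a, a fibre-associated collagen, at 0.0491, otos at 0.0512, the filamin gene flnca at 0.0673 and amot at 0.0677. They were followed by nfil3-2 at 0.0812, the integrin gene itgav at 0.0859, the fibrillin gene fbn2b at 0.0866 and the laminin gene lamb1a at 0.0879. For example, col12a1a was at 136, 131 and 400 CPM in the replicate 1, 2 and 3 controls and at 225, 216 and 368 CPM with graphene oxide. Of the 8 genes themselves, epyc lay closest to their mean, at 0.151, and acanb farthest, at 1.14. The mean includes acanb, which passed the filter through replicate 3, so the search is not independent of that filter. Which genes would be nearest without acanb was not examined, and the genes named are a description.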

How the data were processed

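Each library had a table of 43106 rows. The deposited expected counts are estimated and need not be whole. The authors also deposited TPM and FPKM, which scale for length and depth, per the file headers. Per the submitters' processing notes, Bowtie2 2.3.2 and GRCz11 were used, and the program that counted reads, like its strand setting, is not given in the sources used here, so antisense partners and close paralogs are uncertain. RefSeq names follow another build (GRCz12tu), so no coordinates are given.

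Expected counts were summed by gene ID, rounded and scaled by TMM, then tested with edgeR 4.0.16 (quasi-likelihood, two-sided, Benjamini-Hochberg over all tested genes, threshold 0.05) in R 4.3.3. Each SE is the log2 fold change divided by the square root of its F statistic. Graphene oxide over all 6 libraries used the group alone. Replicates 1 and 2, and the difference of effects, used a fit of 4 cells (each group split into replicate 3 and the others). Replicate 3 against the others had the group as a term. A prior count of 2 was added for log2 values of single libraries. DESeq2 1.42.0 and limma 3.58.1 (pseudocount 1) were alternatives. Scripts were tested on simulated data. Precision is limited by 3 libraries a group, and limits for 0 counts cover counting error only.

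The 8 genes, the lists and the split by replicate 3 were chosen with earlier results of these data known. Genes named from a list were up to 3 per direction, those past the threshold that changed most. Same-numbered libraries had deviations from their group means that correlated at 0.73, 0.75 and 0.87, above the limit of 0.1, so numbers were taken to pair libraries. The pairing comes from the data and rests on replicate 3, since correlations across numbers 1 and 2 were 0.72 and 0.74.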

Additional observations from a re-analysis of the deposited data

Results flagged for a closer look

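For 7 of the 8 genes edgeR called the graphene oxide effect lower in the replicate 3 pair than in replicates 1 and 2, as it called 14.2% of all tested genes in either direction. Each replicate 3 group is 1 library, so this rests on the spread between replicates 1 and 2, and the split was chosen with results of these data known. DESeq2 called 4 of the 8 and limma 1 or 0, depending on the pseudocount. The log2 effect in replicate 3 minus that in replicates 1 and 2 was -1.64 for matn1, -1.35 for acana, -1.03 for hapln1a, -0.91 for acanb, -0.64 for epyc, -0.52 for matn4 and -0.45 for cnmd. On the log2 scale the replicate 3 libraries of the groups lay closer together in all 7 than those of replicates 1 and 2. Groups of 3 libraries were too small to look for a single library far from its group.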

How the results depend on the processing

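Over all 6 libraries, 0 of the 8 genes were called under every alternative, the replicate block included. The small log2 fold change of acanb there turned to -0.0019 with DESeq2 size factors and to -0.040 with only the highest row per gene ID. Leaving out 1 library at a time, it ranged from -1.92 to 2.71, that of matn4 from -0.10 to 0.61 and that of epyc from -0.024 to 0.81. Without control replicate 3, 7 of the 8 genes had an unadjusted p under 0.05 in edgeR (smallest adjusted p = 0.218), as did 2129 of 19313 tested genes. The median log2 fold change of the 8 was then 0.82. For graphene oxide in replicates 1 and 2, limma called 5 genes with a pseudocount of 1 and 4 with 0.1, and 6 to 8 were called without 1 library. For replicate 3 against the others 6 to 8 were called without 1 library, 6 with DESeq2, limma or the highest row per gene ID and 5 with no group term, and hapln1a ranged from -0.036 to 1.00. For the difference of effects DESeq2 called 4, limma 1 (pseudocount 1) and 0 (pseudocount 0.1), where 6 of the 8 had an unadjusted p under 0.05, and 6 to 7 were called without 1 library. In limma with a pseudocount of 0.1, 3359 of 19313 tested genes also had an unadjusted p under 0.05. The difference of effects could not be fitted without a replicate 3 library. With only the highest row per gene ID, 7 of the 8 genes were called for graphene oxide in replicates 1 and 2. That setting, and the fit with no filter, also called fewer of the 8 for the difference of effects. The cause of these changes was not tested.

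Over all genes, calls in replicates 1 and 2 were 2504 higher and 2287 lower, against 805 and 697 with DESeq2, 798 and 343 or 450 and 179 with limma (pseudocount 1 or 0.1), and 1504 and 1248 without graphene oxide replicate 2. For the difference of effects, 1281 and 1465 became 373 and 388 with DESeq2, 30 and 89 or 1 and 0 with limma, and 798 and 931 without graphene oxide replicate 2. DESeq2 called 3 higher and 7 lower over all 6 libraries. For replicate 3 against the others DESeq2 called 4872 higher and 4397 lower, where edgeR called 5568 and 5221. The median pair differences of 0.62, 0.60 and -0.06 were 0.51, 0.58 and -0.041 on log2(FPKM + 1), and 0.67, 0.75 and 2.1e-05 on log2(TPM + 1). On the TPM scale the median of all tested genes itself moved to 0.18, 0.19 and 0.02. The replicate 2 median was 0.62 and 0.57 with prior counts of 0.5 and 5. With the replicate block the call of acanb in replicates 1 and 2 ended (adjusted p = 0.0784), that of ihha among the named list genes too, and no other call of the 8 genes changed. Depth limits acanb most, with 20 counts in its lowest library.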
